A study of Mus musculus with 12 samples.

Results

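Messenger RNA on tagged neuronal ribosomes in a synaptic fraction of mouse cortex (SynapTRAP, 3 libraries) was compared with all RNA of the same fraction (SNF, 3 libraries). These 6 of the 12 libraries of the series were chosen by their sample titles, and same-numbered libraries were treated as pairs. The mice of all 4 groups carried the SNAP25 BacTRAP transgene, their cortex was taken at postnatal day 21, and no treatment is named. In such mice a ribosomal protein fused to GFP is made from a bacterial artificial chromosome under the regulatory sequences of Snap25, a neuronal gene, so that antibodies against GFP bring down ribosomes of neurons with the mRNA on them. SNF denotes the band of synaptic particles from a sucrose and percoll gradient, taken without immunoprecipitation, and SynapTRAP is the immunoprecipitate. The other groups were whole cortex homogenate (WCH) and the immunoprecipitate from it (TRAP). Nothing in the labels ties the replicates to different animals. The p-values therefore speak only of the spread among these samples, which may be technical.

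Neurons carry selected mRNAs, among them those of Camk2a, Arc and the Shank scaffolds, into dendrites and translate them near synapses. Proteins of the cytosol and cytoskeleton are made on free ribosomes. Receptors, channels, adhesion molecules and secreted proteins are made on ribosomes bound to the endoplasmic reticulum. A hydrophobic stretch of the growing chain directs these ribosomes there. A synaptic band of a density gradient holds pinched-off nerve endings with attached postsynaptic membranes, along with mitochondria, myelin fragments and glial processes.

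Mitochondrially encoded RNA took 87.3%, 82.2% and 84.5% of the gene counts in SNF replicates 1 to 3, and 34.6%, 20.4% and 63.3% in SynapTRAP (95% Wilson intervals at most 0.0605 percentage points wide, for counting error only). Most of it was the 2 mitochondrial ribosomal RNAs, which alone took 78.6% to 83.6% of the gene counts in SNF. All levels below are therefore counts per 1000000 non-mitochondrial gene counts (CPM). These counts numbered 1819853 to 2111322 per SNF library and 3585898 to 7115176 per SynapTRAP library. SynapTRAP replicate 3 stood apart, with the highest mitochondrial share of its group, the fewest non-mitochondrial counts, and 17.4% of its reads outside genes against 5.92% and 10.4% in the other two. Results that rest on one pair are given with and without it. GFP mRNA, the tag itself, had 10, 14 and 13 counts in SNF and 119, 133 and 51 in SynapTRAP. These counts correspond to 5.46, 6.99 and 6.0 CPM against 18, 19.1 and 13.9 CPM, groups that did not overlap (log2 fold change 1.45 ± 0.35 SE, adjusted p = 0.00097 by edgeR). A fit with DESeq2 did not call GFP (log2 fold change 1.44). Snap25 did not pass the test, at 6496, 6894 and 7493 CPM in SNF and 5476, 6622 and 4458 in SynapTRAP (log2 fold change -0.35, edgeR adjusted p = 0.332). In these bulk samples, fewer cells or particles of a type and less RNA per cell cannot be told apart.

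Of 11236 genes tested, 1086 (9.67%) were higher and 1124 (10%) were lower in SynapTRAP at an edgeR adjusted p below 0.05, 19.7% in either direction, and 24.6% of the genes tested did not overlap between the groups. The median log2 fold change over all tested genes was -0.00048. Of the 2210 genes called, 2146 moved in one direction in all 3 pairs. Without the replicate block 184 (1.64%) were higher and 112 (0.997%) lower, and all 296 were among the calls with the block. Leaving out the first pair gave 417 higher and 574 lower, leaving out the second gave 660 and 669, and leaving out the third, which holds the library that stood apart, gave 1131 and 995. The test had 2 residual degrees of freedom per gene and drew most of its estimate of the spread from the other genes, which limits how far single p-values can be read.

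Among the 12 genes with the largest increases by the naming rule were the myelin genes Mbp, Bcas1 and Prr18, the spectrins Sptb and Sptbn1, the actin-associated Lcp1, Myh14, Myh9, Iqgap1 and Dbn1, and the mitochondrial serine enzyme Shmt2. Their log2 fold changes ran from 1.68 to 2.11. In the fit over all 12 libraries, which takes its spread also from TRAP and WCH, the calls of all but Iqgap1 and Shmt2 were lost, with fold changes of like size. Lcp1, an actin bundler also made by immune cells, was at 28.9, 19.5 and 11.1 CPM in SNF and at 83.1, 107 and 50.6 CPM in SynapTRAP, with no overlap. Of the 12 largest decreases 7 were mitochondrially encoded, and Malat1 and AI504432 (-1.62) were long noncoding RNAs. Snhg11 is counted with such RNAs below but is annotated as protein-coding. The rest were Zcchc7 (-1.66) and Xk, a membrane protein with 7 predicted hydrophobic segments, as defined with the sequences below. Xk was at 107, 156 and 146 CPM in SNF and at 51.0, 62.9 and 26.9 CPM in SynapTRAP (log2 fold change -1.58 ± 0.20 SE, adjusted p = 5.27e-10 by edgeR). Below, "without" a pair means the fit on the other 4 libraries.

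Scaffolds of the postsynaptic density were the synaptic group that rose most often. Of 29 tested, 22 were higher and 1 was lower (14 and 0 without the replicate block), with a list median of 0.98. Shank3, a master scaffold that links glutamate receptor complexes to actin, was at 167, 149 and 138 CPM in SNF and at 432, 339.8 and 565 CPM in SynapTRAP. Every SynapTRAP library lay above every SNF library, and the log2 fold change was 1.53 (± 0.19 SE, adjusted p = 1.88e-10 by edgeR). Dlgap3, which joins Shank proteins to PSD-95, was at 129.8, 92.4 and 92.8 CPM against 309, 204 and 403 CPM. It rose with a log2 fold change of 1.5 (± 0.20 SE, adjusted p = 5.27e-10 by edgeR), with no overlap. Iqsec2, an exchange factor for Arf GTPases at the postsynaptic density, rose from 109.7, 89.4 and 78.0 CPM to 365, 200.2 and 217 CPM (log2 fold change 1.46). The other members called higher included Dlg4, which encodes PSD-95, all members tested of the Dlgap family, Shank1, Shank2, Lrrc7 and Begain. The single scaffold called lower was Homer1, at 137, 129.9 and 293 CPM in SNF and 99.8, 80.8 and 231 CPM in SynapTRAP. These groups overlapped, and the call (log2 fold change -0.49, edgeR adjusted p = 0.0471) was lost without the first pair, without the second pair and without the block.

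Regulators of spine GTPases and kinases rose in 11 of 25 genes tested and fell in none (median 0.47). Only 4 were called without the first pair, and 4 without the replicate block. Arhgap33, a GTPase-activating protein of spines, was at 143, 155 and 133 CPM in SNF and at 395, 299 and 513 CPM in SynapTRAP (log2 fold change 1.45 ± 0.19 SE). Git1, a scaffold of Rac signalling, rose with a log2 fold change of 1.31 and Agap2, an Arf GTPase-activating protein, by 1.15. Camk2a, the kinase of long-term potentiation, was at 4677, 4543 and 4932 CPM in SNF and at 11858, 9596 and 16182 CPM in SynapTRAP. The groups did not overlap (log2 fold change 1.38 ± 0.26 SE, adjusted p = 1.04e-05 by edgeR), but the call was lost without the first pair and in the fit over all 12 libraries. Among 35 mRNAs known to reach dendrites, which share members with both lists, 18 were higher and 3 lower (11 and 1 without the first pair). Arc, an activity-regulated gene, rose in every pair, from 183, 358 and 188 CPM to 353, 723 and 714 CPM. Its groups overlapped because the second SNF library lay above the first SynapTRAP library (log2 fold change 1.29 ± 0.20 SE, adjusted p = 6.28e-08 by edgeR). Neurogranin (Nrgn), a calmodulin-binding protein of spines whose mRNA also reaches dendrites, did not pass the test, at 355, 445 and 331 CPM against 406, 388 and 392 CPM (log2 fold change 0.08 ± 0.19 SE, adjusted p = 0.82 by edgeR). The 3 dendritic mRNAs called lower were Gria1, Gria2 and Bdnf, which encode receptor subunits and a secreted growth factor.

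Receptor genes went the other way from the scaffolds. Of 26 genes of glutamate receptors and their auxiliary subunits, none rose and 13 fell (median -0.47), and of 14 GABA receptor genes none rose and 11 fell (median -0.75). Without the first pair 4 and 6 were lower, without the second pair 8 and 8, without the third 12 and 10, and without the replicate block 2 and 1. Without the second pair 1 glutamate receptor gene was higher. Without the third pair the medians were -0.43 and -0.50. Grm5, the metabotropic receptor that binds Homer proteins, was at 597, 671 and 630.4 CPM in SNF and at 239, 383 and 241 CPM in SynapTRAP. All SynapTRAP values lay below all SNF values (log2 fold change -1.17 ± 0.19 SE, adjusted p = 5.11e-07 by edgeR). Grik2, a kainate receptor subunit, was at 132, 148 and 138 CPM against 69.8, 73.1 and 60.7 CPM (log2 fold change -1.04 ± 0.19 SE). Grin2b, the NMDA receptor subunit abundant in young cortex, fell from 3675, 4680.1 and 4151 CPM to 1531, 2691 and 1562 CPM. This change of -1.16 (± 0.23 SE, adjusted p = 2.79e-05 by edgeR) lost its call without the first pair and without the block. Gabrg3, a GABA-A receptor subunit, was at 279.9, 358 and 398 CPM in SNF and at 146, 192 and 127 CPM in SynapTRAP, again without overlap (log2 fold change -1.16 ± 0.19 SE, adjusted p = 5.59e-07 by edgeR).

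Synaptic adhesion molecules, which span the cleft, fell in 13 of 29 genes and rose in none (median -0.45). The count was 5 without the first pair and 3 without the replicate block. Cadm2, an immunoglobulin adhesion molecule of axons, was at 2452, 2802 and 3054 CPM in SNF and at 1009, 1697 and 908 CPM in SynapTRAP (log2 fold change -1.25 ± 0.22 SE, adjusted p = 2.76e-06 by edgeR). Lrrtm2, a postsynaptic organiser of excitatory synapses, was at 354, 503 and 459.6 CPM against 188, 256 and 163 CPM and fell by a log2 value of 1.12 (SE 0.19). In both genes every SynapTRAP library lay below every SNF library.

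Ion channels and pumps fell more often than they rose. Among 61 potassium and HCN channel genes 21 were lower and 2 higher, among 27 sodium and calcium channel genes 8 were lower and 1 higher, and among 11 sodium and calcium pump genes 5 were lower and none higher. The lower counts were 12, 3 and 1 without the first pair, 12, 6 and 1 without the second, and 0, 1 and 0 without the replicate block. Cacna2d1, the calcium channel subunit that binds gabapentin, was at 950.4, 1161 and 1212 CPM against 322, 532 and 480.4 CPM (log2 fold change -1.34 ± 0.20 SE, adjusted p = 2.59e-08 by edgeR). Scn8a, a sodium channel of the axon initial segment, fell by 1.01 (SE 0.20), a call lost without the block. The members called higher were Kcnh3 (log2 fold change 0.91) and Hcn2 (0.93), both channel subunits that cross the membrane, and Cacnb3 (0.69), a cytosolic auxiliary subunit. Their calls were lost without the block. Kcnab2, the cytosolic beta subunit of potassium channels, belongs to the dendritic list and rose from 190.4, 139 and 153 CPM to 518, 343 and 396 CPM (log2 fold change 1.37 ± 0.19 SE, adjusted p = 3.55e-09 by edgeR).

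**Figure D1:**
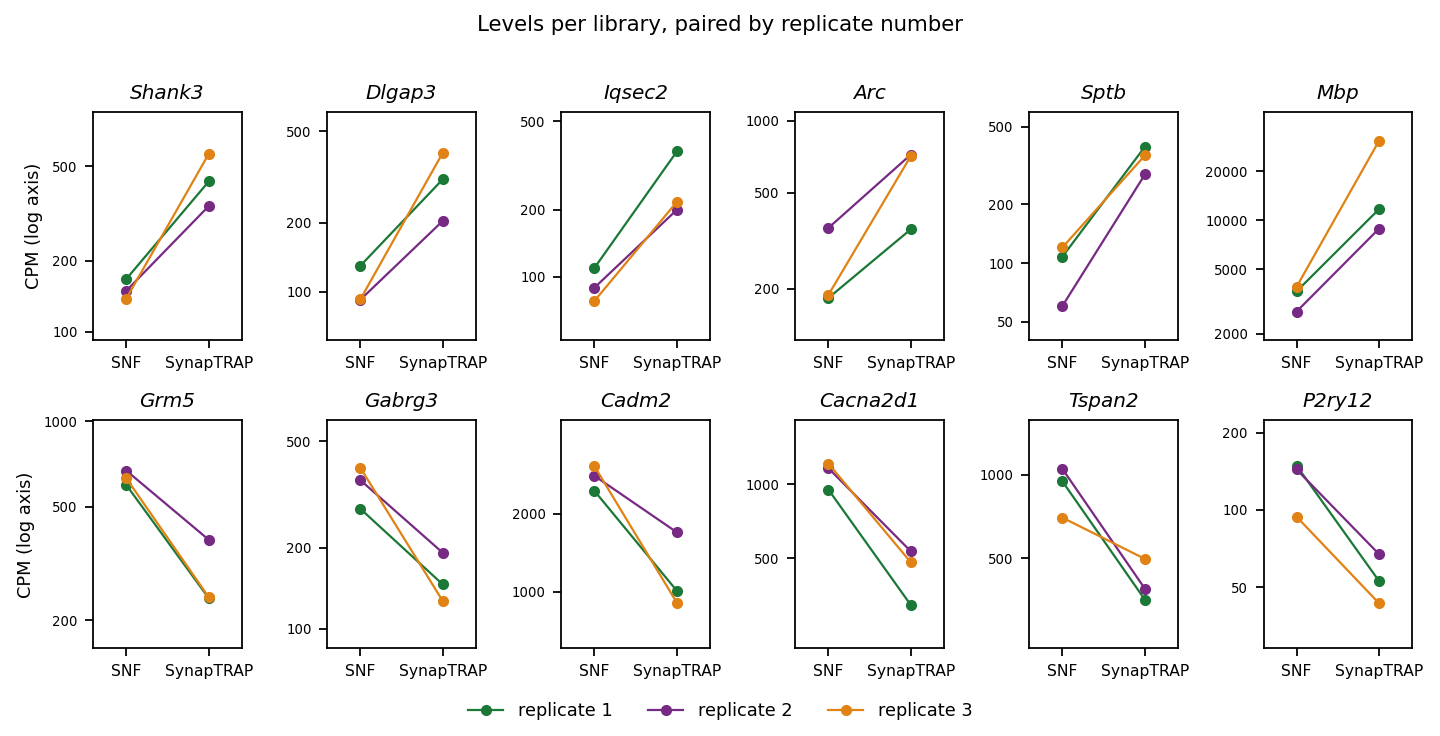
Levels of 12 genes in CPM (log axis) in the 3 SNF and 3 SynapTRAP libraries, with lines joining libraries of one replicate number. In the upper row every line rises, as for Shank3 from 138 to 167 up to 339.8 to 565 CPM, and in the lower row every line falls, as for Grm5 from 597 to 671 down to 239 to 383 CPM.

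The lists above separate proteins that lie under the membrane from proteins that cross it. The encoded proteins were therefore compared by predicted hydrophobic segments, a measure added after the data were seen. A segment was counted where 19 residues in a row averaged at least 1.6 on the Kyte-Doolittle hydropathy scale, in the longest coding transcript of the gene in GENCODE M21. The most hydrophobic 57 bases of coding sequence are shown for 3 genes that were lower and 2 that were higher. Capitals mark codons with T as the middle base, which encode the hydrophobic residues Phe, Leu, Ile, Met and Val. Positions are gene spans in GRCm38, counted from 1: Grm5 on the plus strand of chromosome 7, chr7:87584168-88134907; Gabrg3 on the minus strand, chr7:56716465-57387188; Cadm2 on the minus strand, chr16:66655421-67620908. Shank3 lies on the plus strand at chr15:89499623-89560261 and Dlgap3 on the plus strand at chr4:127169204-127237022.
Grm5: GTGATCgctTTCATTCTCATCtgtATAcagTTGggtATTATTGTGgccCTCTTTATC
Gabrg3: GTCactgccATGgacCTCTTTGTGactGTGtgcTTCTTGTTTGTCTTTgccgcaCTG
Cadm2: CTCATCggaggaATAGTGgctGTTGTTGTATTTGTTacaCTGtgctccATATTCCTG
Shank3: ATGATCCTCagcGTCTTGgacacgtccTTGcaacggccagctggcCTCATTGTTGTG
Dlgap3: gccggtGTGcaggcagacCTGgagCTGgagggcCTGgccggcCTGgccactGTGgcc
The stretches of the lower genes held 14, 12 and 13 capital codons of 19 and averaged 3.11, 2.33 and 2.82 on the hydropathy scale. Those of Shank3 and Dlgap3 held 10 and 6 and averaged 1.30 and 0.879, below the threshold. Sptb, which encodes an erythroid-type spectrin that does not cross the membrane, was also counted as having a segment although it was among the genes that rose most. A segment is thus a prediction, and a signal peptide or a buried helix can be counted too.

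Genes that fell mostly encoded such segments and genes that rose mostly did not. A segment was present in 84.2% of 1084 lower genes, 21% of 1061 higher genes and 37.5% of the 10961 protein-coding genes tested that had a coding sequence. Of 6853 genes without a segment 12.2% were higher and 2.5% lower, and of 2046 genes with 2 or more segments 2.83% were higher and 29.3% lower. The median log2 fold change was 0.13 without a segment, -0.10 with 1 segment and -0.40 with 2 or more. In pairs 1, 2 and 3 taken alone, the median of genes without a segment was 0.13, 0.18 and 0.12, and that of genes with 2 or more was -0.27, -0.36 and -0.50. At a stricter threshold of 1.8 the shares with a segment were 78.0% of lower and 8.95% of higher genes. Without the replicate block they were 93.8% and 24.7%. No test is given, since the measure was chosen with these fold changes in view.

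**Figure D2:**
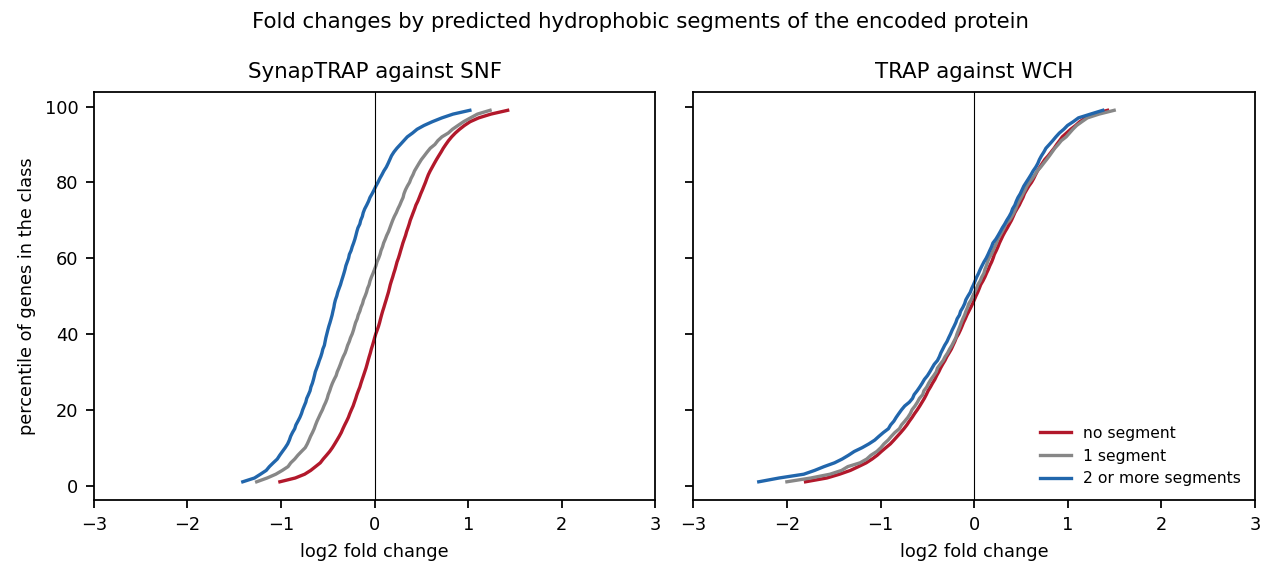
Log2 fold changes (horizontal axis) at each percentile from 1 to 99 (vertical axis) of genes with no, 1, and 2 or more predicted hydrophobic segments, for SynapTRAP against SNF on the left and TRAP against WCH on the right. On the left the medians lie at 0.13, -0.10 and -0.40, and on the right the curves lie closer together, with medians of 0.02, -0.02 and -0.07.

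Within single lists the segment classes differed in some and not in others. Scaffolds and receptors cannot show it, since 28 of 29 scaffolds had no segment and all 26 glutamate receptor and all 14 GABA receptor genes had one. Among spine GTPase regulators and kinases 4 of 7 genes with a segment and 7 of 18 without were higher. Among chromatin regulators these counts were 4 of 9 and 11 of 24, among kinesins and dynein 3 of 5 and 5 of 26, and among glycolytic enzymes 4 of 5 and 6 of 11, with none lower in these 4 lists. Tubulins and microtubule-associated proteins were higher in 2 of 3 and 11 of 22, and zinc finger proteins with a segment were higher in 5 and lower in 1 of 11 genes. Of 54 nuclear oxidative phosphorylation genes without a segment 5 were higher and 5 lower. Of 22 with one 0 were higher and 2 lower. Of presynaptic genes, 22 with a segment and 27 without, 10 of 49 were higher and 5 lower (median 0.17). The higher members were mostly proteins of the release machinery that attach from the cytosol, among them Unc13a, a vesicle priming factor (log2 fold change 0.82), Bsn, a giant active zone scaffold (0.84), and Erc1, another active zone protein (0.72). Of these 10, 8 had no segment. The 5 lower members all had one, among them Syt4 (-0.68), a synaptotagmin of vesicle membranes, and Nrn1 (-0.82), a secreted and lipid-anchored growth factor. Without the first pair 0 presynaptic genes were higher and 1 lower, without the second 4 and 3, without the third 15 and 3, and without the block none was called in either direction. Of 13 spectrin, ankyrin and axon initial segment genes, 9 were higher. Of the 5 with a segment 2 were higher and 2 lower, and the lower ones were L1cam (-0.56) and Nrcam (-0.52), adhesion molecules of axons that cross the membrane. Both of these calls were lost without the first pair.

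Coding length was also associated with the fold change. Genes called higher had a median coding length of 2422.5 bases, against 1308 in genes called lower and 1479 in all genes tested. Their 3′ untranslated regions were shorter, with medians of 1018, 1997 and 1134 bases in the same order, and the GC content of their transcripts was 55.0%, 46.3% and 50.3%. The genes were split into a short, a middle and a long class of equal size at coding lengths of 1098 and 2010 bases. In the short class, 3.78% of genes without a segment were higher and 3.82% lower, and with 2 or more segments 0.709% were higher and 34.2% lower. In the middle class the shares were 10.8% and 2.16% without a segment, and 0.825% and 29.6% with 2 or more. In the long class they were 23.5% and 1.32%, and 6.36% and 25.4%. The segment classes thus differed within each class, and the share of higher genes without a segment was larger in longer genes. Across the 11035 genes with a coding transcript, the log2 fold change had a Spearman correlation of 0.28 with coding length and 0.31 with transcript GC content, as a description only. Length, GC content and segments vary together over genes, and their parts in the fold changes were not tested separately.

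**Figure D3:**
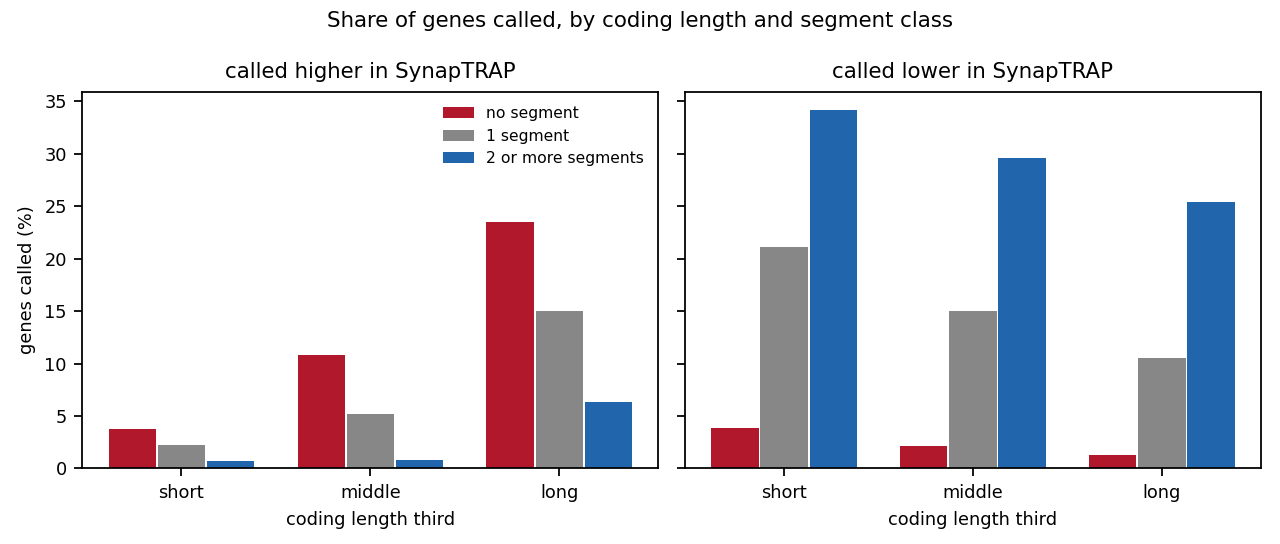
Percentage of genes called higher (left) or lower (right) in SynapTRAP, by class of coding length and by number of predicted hydrophobic segments. The share called lower with 2 or more segments is 34.2%, 29.6% and 25.4% from the short to the long class, and the share called higher without a segment is 3.78%, 10.8% and 23.5%.

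Genes of the submembrane and actin cytoskeleton had some of the largest increases. Of the 13 genes of the spectrin list (median 1.09), Sptb was at 108, 60.5 and 120.4 CPM in SNF and at 395, 285 and 357 CPM in SynapTRAP. The groups did not overlap (log2 fold change 1.88 ± 0.20 SE, adjusted p = 1.33e-14 by edgeR). The widely expressed partners Sptbn1 and Sptan1 rose by 1.73 and 1.51. Of 27 actin and myosin genes 12 rose and none fell. Myh9, a non-muscle myosin II heavy chain, was at 45.8, 41.0 and 30.5 CPM against 172, 152 and 116 CPM (log2 fold change 1.91 ± 0.21 SE). Dbn1, the drebrin that decorates spine actin, was at 74.7, 53.0 and 81.7 CPM against 282, 208 and 198 CPM (log2 fold change 1.72 ± 0.20 SE), and Myo6, the motor that walks toward the minus end of actin, rose by 1.56. In the fit over all 12 libraries 2 spectrin list members and 3 actin and myosin genes were higher, and the calls of the 6 genes named here were lost.

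Tubulins and microtubule-associated proteins rose in 15 of 27 genes and kinesins and dynein in 8 of 31, with none lower in either list. Without the first pair 2 and 4 were higher, without the second 9 and 4, and without the replicate block 2 and 1. Tuba1a, an alpha tubulin of young neurons, was at 261, 278 and 298 CPM in SNF and at 688, 646 and 558 CPM in SynapTRAP. It rose with a log2 fold change of 1.17 (± 0.19 SE, adjusted p = 4.96e-07 by edgeR), though tubulin genes share sequence with close copies and their counts are uncertain. Mast1, a microtubule-associated kinase, rose by 1.07 and the dynactin subunit Dctn1 by 0.93, the latter not without the block.

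Chromatin and transcription regulators, whose long mRNAs encode nuclear proteins, rose in 15 of 33 genes and fell in none (median 0.56). The counts were 4 without the first pair, 8 without the second and 3 without the block. Hdac5, a histone deacetylase that shuttles out of the nucleus, was at 101, 113 and 85.8 CPM in SNF and at 372, 156 and 354 CPM in SynapTRAP (log2 fold change 1.46 ± 0.21 SE, adjusted p = 8.22e-08 by edgeR). The second SynapTRAP library was the lowest of its group but still above every SNF library. Hdac4, of the same family, rose by 1.15 (SE 0.21).

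Housekeeping groups of the cytosol rose in part, and these calls leaned on single pairs. Translation factors were higher in 12 of 63 genes and lower in 2, glycolytic enzymes higher in 10 of 16, chaperonins and heat shock proteins in 9 of 20 and proteasome subunits in 6 of 35, with none lower in the last 3 lists. Without the first pair the higher counts were 2, 0, 1 and 0, and without the second 4, 2, 0 and 1. Without the replicate block they were 1, 0, 0 and 0. Eef2, the elongation factor that moves the ribosome along, held its call in all of these fits and was at 483, 415 and 366 CPM against 1073, 751 and 874 CPM (log2 fold change 1.09 ± 0.19 SE, adjusted p = 4.69e-06 by edgeR). Genes of cytosolic ribosomal proteins have many pseudogenes of like sequence and are uncertain here. They were higher in 1 and lower in 2 of 56 genes. Rpl10a itself had too few counts to be tested. RNA-binding proteins of transport granules were higher in 2 of 26 genes, and in 0 without the second pair or without the block. One was Fxr2 (0.93), whose call was lost without any one of the 3 pairs.

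Some genes of the secretory pathway fell. Among 33 endoplasmic reticulum chaperone and translocon genes 8 were lower and none higher (4 lower without any one of the 3 pairs and 1 without the block). The list median was -0.23, but -0.05 without the third pair, when 1 gene was higher. Ssr3, a subunit of the translocon-associated complex, was at 379, 332 and 329 CPM in SNF and at 177, 208 and 134 CPM in SynapTRAP (log2 fold change -1.02 ± 0.19 SE, adjusted p = 9.74e-06 by edgeR). All 8 had a hydrophobic segment, as did 29 of the 33 on the list. Among 24 lysosomal genes 4 were lower, among them the cholesterol exporter Npc1, at 145, 176 and 100.1 CPM against 46.5, 66.8 and 79.7 CPM (log2 fold change -1.13 ± 0.20 SE). Without the second pair, and also without the block, 1 lysosomal gene was lower.

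**Figure D4:**
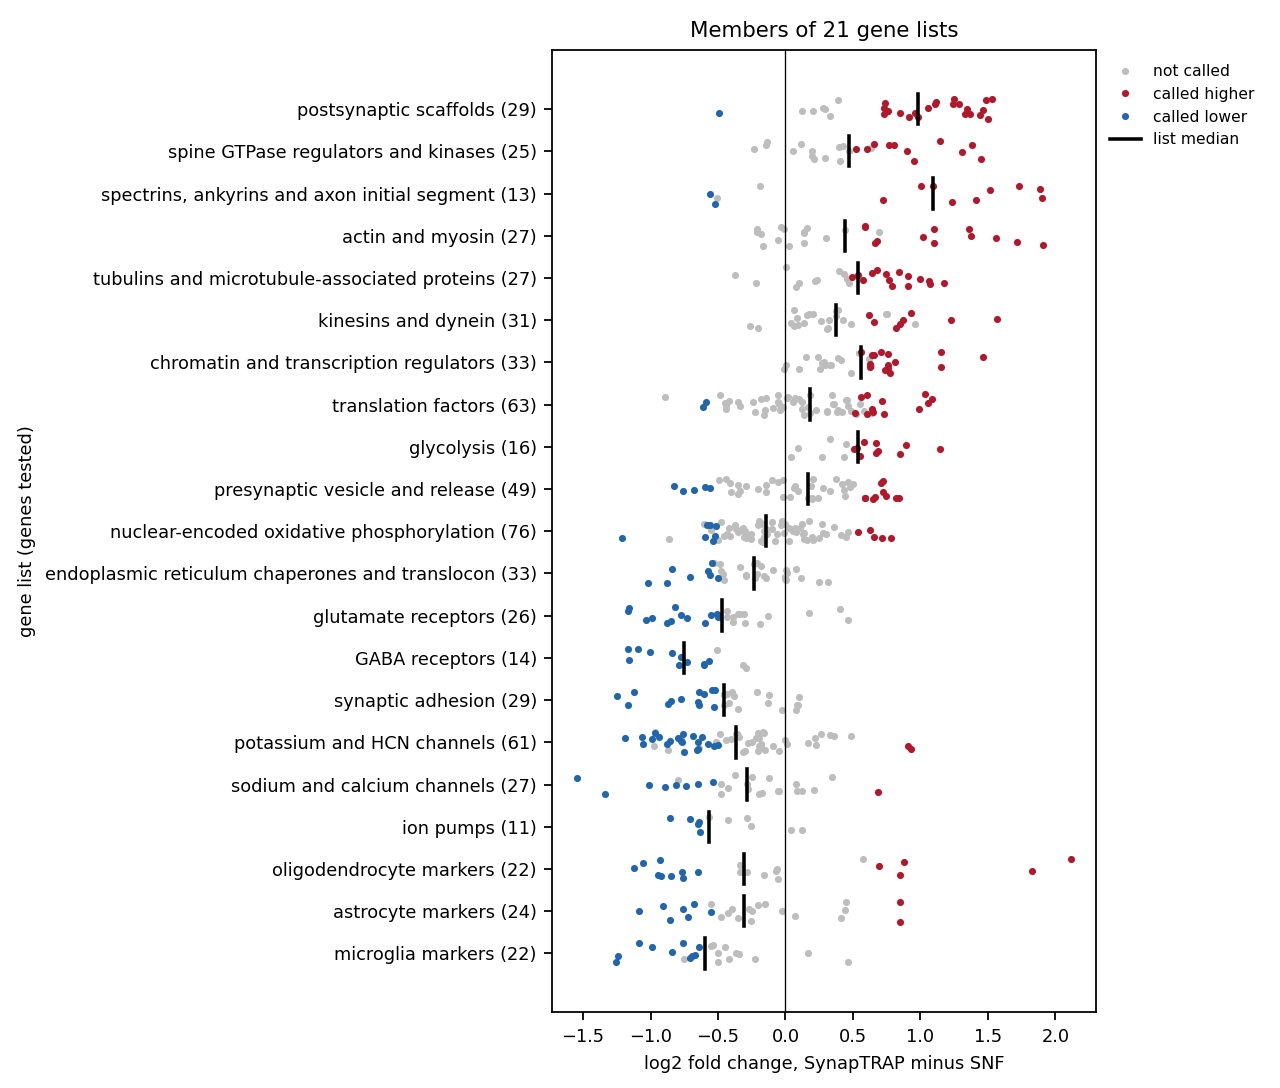
Log2 fold change, SynapTRAP minus SNF, of each tested member (points) of 21 gene lists, with black bars at the list medians and red and blue points for genes called higher and lower by edgeR at an adjusted p below 0.05. Scaffolds and spectrins lie mostly to the right of 0 (medians 0.98 and 1.09), receptors, adhesion molecules and pumps mostly to the left (medians from -0.45 to -0.75), and oligodendrocyte markers at both ends.

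RNA made inside mitochondria was depleted by the pull-down. Of 22 mitochondrially encoded genes tested 18 were lower and none higher (median -1.87; 12 lower without the replicate block and 11 in the fit over 12 libraries). mt-Cytb, which encodes cytochrome b, was at 62914, 46133 and 51851 CPM in SNF and at 2695, 1659 and 8802 CPM in SynapTRAP. The log2 fold change was -3.99 (± 0.37 SE, adjusted p = 1.18e-16 by edgeR), and it was least deep in the third pair, at -2.56. mt-Nd2 and mt-Nd6, subunits of complex I, fell by 3.86 and 3.54. Nuclear genes of oxidative phosphorylation did not share this: 5 of 76 were higher and 7 lower (median -0.14). These shares of 6.58% and 9.21% lay below the 9.67% and 10% of all genes tested. Uqcrc1 of complex III (0.78) was among the higher genes. Cox8a (-0.58), Uqcrq (-0.60) and Ndufb9 (-0.56) were among the 7 lower ones, of which 5, Uqcrq and Ndufb9 included, had no hydrophobic segment. Without the first pair 1 of the 76 was higher and 0 were lower, and without the second 1 and 1. Long noncoding RNAs known to stay in the nucleus were lower in 3 of 6 genes. Malat1 was at 1306, 2116 and 5186 CPM in SNF and at 290.4, 279 and 3045 CPM in SynapTRAP, with the third library of each group far above the other two and the groups overlapping (log2 fold change -1.96 ± 0.26 SE; -1.25 and not called without the block). None of the 6 was called without the block.

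Markers of other cell types were present in both groups, and their part in the results above was not tested. Summed over 22 oligodendrocyte markers, levels were 16466 to 22145 CPM in SNF and 19912 to 43618 CPM in SynapTRAP. Over 24 astrocyte markers they were 40044 to 52479.7 and 27146 to 46544 CPM, and over 22 microglia markers 967 to 1858 and 608 to 1336 CPM. None of the defining markers of these 3 types was at 0 counts in a library. Within the oligodendrocyte list 5 genes were higher and 9 lower. Mbp, the myelin basic protein whose mRNA is carried into oligodendrocyte processes and which has no hydrophobic segment, was at 3651, 2741 and 3890.2 CPM in SNF and at 11707, 8880.1 and 30802 CPM in SynapTRAP. It did not overlap and rose by 2.11 (± 0.27 SE, adjusted p = 4.9e-10 by edgeR; 1.69 without the third pair), but was not called in the fit over 12 libraries. Bcas1 rose by 1.83 and Cnp by 0.88. Tspan2, a tetraspanin of myelin, was at 948, 1051 and 701 CPM against 353, 387 and 496 CPM, and fell by 1.12 (± 0.20 SE, adjusted p = 3.52e-06 by edgeR). All 5 oligodendrocyte genes that rose had no segment, and all 9 that fell had one, in a list of 9 genes without and 13 with a segment. Without the third pair 3 were higher and 12 lower, without the second 5 and 5, without the block 2 and 1, and in the fit over 12 libraries 1 and 7.

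Of 24 astrocyte markers 2 were higher and 7 lower. The 2 were Gfap, an intermediate filament protein, at 84.6, 67.5 and 100.1 CPM against 157, 106 and 198 CPM (log2 fold change 0.85 ± 0.19 SE), and the cytosolic enzyme Aldh1l1 (0.85 ± 0.22 SE), neither with a segment. The water channel Aqp4 was at 366, 322 and 392 CPM in SNF and at 222, 128 and 170.4 CPM in SynapTRAP (log2 fold change -1.08 ± 0.19 SE, adjusted p = 2.39e-06 by edgeR). The glutamate transporter Slc1a2, at 30821, 21846 and 24793 CPM against 24884, 17758 and 14077 CPM, did not pass the test (log2 fold change -0.47, edgeR adjusted p = 0.265). All 7 astrocyte genes that fell had a segment, as did 18 of the 24 on the list. Without the third pair 4 astrocyte markers were higher, and without the block 0 were higher and 1 lower. Of 22 microglia markers 10 were lower and none higher (3 lower without the second pair and 2 without the block), and 9 of the 10 had a segment, as did 14 of the 20 on the list with a coding sequence. The purinergic receptor P2ry12 was at 149, 144 and 94.1 CPM against 52.8, 67.2 and 43.3 CPM (log2 fold change -1.24 ± 0.19 SE, adjusted p = 1.84e-07 by edgeR).

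Neuronal markers were present in both groups, as the tissue label implies. The 10 defining markers of neurons summed to 13142 to 14344 CPM in SNF and 8113 to 14481 CPM in SynapTRAP, and the 6 of inhibitory neurons to 832 to 1568 and 525 to 1712 CPM. The 6 of excitatory neurons, Camk2a among them, summed to 6393 to 6969.9 and 11830.3 to 17460.3 CPM. Most of this sum was Camk2a, and of the 6 only 1 was called higher and 1 lower. Of a wider list of 20 neuronal markers 6 were higher and 2 lower, with neurofilament and tubulin genes among the higher (1 and 0 without the first pair or without the block, 3 and 2 without the second). Of 14 markers of fibroblasts and meninges 3 were higher and 3 lower, of 4 of choroid plexus and ependyma 2 were lower, and of 5 mural markers 1 was lower. Without the first or without the second pair the first of these lists had 0 higher and 2 lower and the second had no calls. Their summed levels were 508 to 1373 and 369.9 to 1978 CPM for fibroblasts and meninges, and 547 to 3057 and 319 to 1880.4 CPM for choroid plexus and ependyma. None of 9 endothelial markers was called by edgeR or by DESeq2, and 2 of them had an unadjusted p below 0.05 by edgeR.

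The pull-down from whole homogenate, TRAP against WCH, shares no library with this comparison. In one edgeR fit over the 12 libraries and 13137 genes, 14.3% were higher and 15.9% lower in TRAP. Among the genes tested in both fits, 1851 were higher and 1921 lower in TRAP. Of the 1086 genes higher in SynapTRAP, 471 (43.4%, or 25.4% of the 1851) were higher in TRAP too, and of the 1124 lower genes 491 (43.7%, or 25.6% of the 1921) were lower in TRAP. Hydrophobic segments split the TRAP fold changes less: of genes without a segment 17.0% were higher and 16.1% lower, and of genes with 2 or more 15.1% were higher and 20.1% lower. The difference between both pull-down effects was called for 495 genes (3.77%) that were higher in the band and 438 (3.33%) that were lower, 7.1% in all. This split depended on the scaling, which moved the median difference of all genes from 0.08 to -0.05 or 0.20. With median-ratio factors 331 were higher and 671 lower, and with total counts 618 and 213. Without the replicate block 75 and 51 were called. Without the first replicates the counts were 138 and 281, without the second 67 and 126, and without the third 247 and 343. Genes with at least 1 segment were lower in the band in 6.62% of cases and higher in 2.43%, against 2.29% and 5.36% of genes without one. Transcripts of genes higher in the band by the difference had a median length of 4930.0 bases, against 1784 bases for genes lower in it. For TRAP against WCH the Spearman correlation over genes was -0.04 with coding length and 0.58 with GC content, as a description only. With transcript length it was -0.28 for TRAP against WCH and 0.08 for SynapTRAP against SNF. With 3′ untranslated length it was -0.36 and -0.13 in the same order.

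The lists that differed most between the pull-downs were not synaptic. Of 76 nuclear oxidative phosphorylation genes 55 were higher and none lower in TRAP, and 38 differed, all lower in the band. This number was 28 to 46 across the other scalings, filters and DESeq2, and 19 without the block or without the second replicates. Cox8a was at 379, 441 and 364 CPM in SNF and 227, 252 and 319 CPM in SynapTRAP, whereas TRAP raised it by a log2 fold change of 1.17 (difference -1.74, ± 0.29 SE, adjusted p = 0.000548 by edgeR). Of 22 oligodendrocyte markers 14 fell and none rose in TRAP, and 10 differed, all higher in the band (3 without the first or the second replicates and 2 without the block). Other glial lists moved alike. Of 24 astrocyte markers 18 fell in TRAP and 6 differed, and of 22 microglia markers 17 fell and 3 differed. None of either list rose in TRAP, and all that differed were higher in the band. Without the block these counts of differing genes were 0 and 1, and without the second replicates both were 0. The RNA-binding proteins of transport granules fell in 14 of 26 genes in TRAP, and 9 differed, all higher in the band (3 without the first replicates, 1 without the second and 1 without the block). Of 29 postsynaptic scaffolds 11 rose in TRAP and 1 differed. The counts of receptors and adhesion genes that differed were 3 of 26 glutamate receptor, 1 of 14 GABA receptor and 5 of 29 adhesion genes, all lower in the band. Without the first replicates each of these counts was 1, and without the block each was 0, as was that of the scaffolds.

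**Figure D5:**
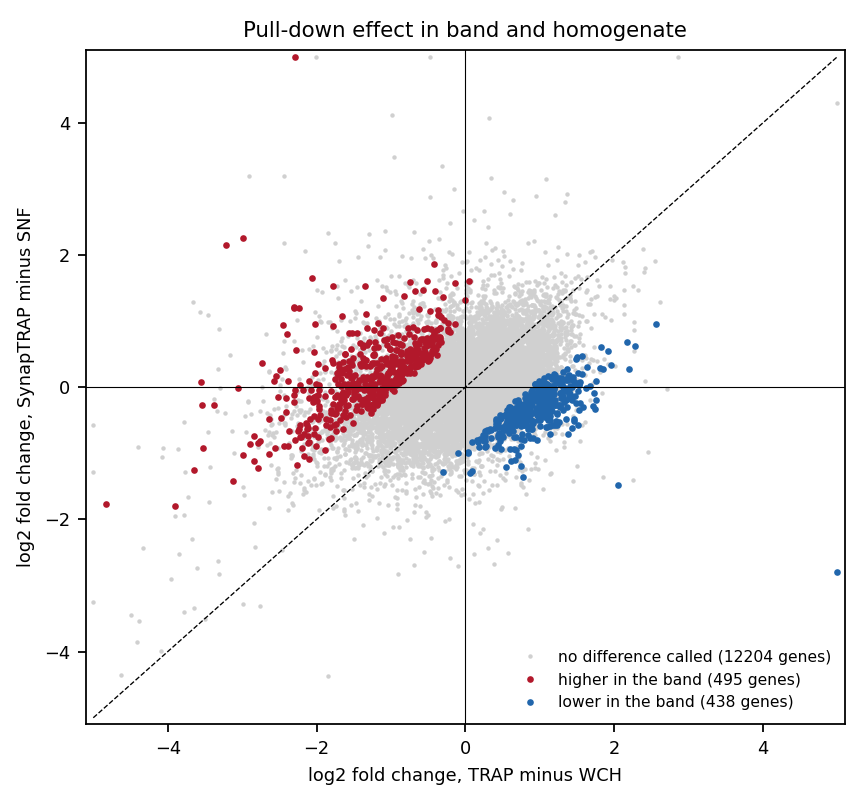
Log2 fold change of SynapTRAP against SNF (vertical axis) and of TRAP against WCH (horizontal axis) for 13137 genes from one fit over 12 libraries, with values beyond 5 drawn at the edge and the dashed line where both are equal. The 495 red genes above the line were higher in the band by edgeR's test of the difference and the 438 blue genes below it were lower.

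The authors' deposited table of 109 locally translated candidates was drawn from these libraries, so it is not independent evidence. All 109 were tested here, 101 were called higher and none lower, against 9.67% and 10% of all genes tested. Of the 109, 22 had a false discovery rate below 0.05 in the authors' deposited table. Across the 109 genes the deposited log2 fold change by TRAP and the one computed here had a Pearson correlation of 0.72. In the companion table of somatic candidates 269 genes were tested here, of which 53 were called higher and 3 lower. There the correlation was 0.17. The headers give the fold change only as by TRAP and do not name the groups behind it.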

How the data were processed

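Libraries of cDNA were made with a NuGEN kit from cortical RNA, per the labels' protocols. The tools named per the submitters' processing notes are STAR, Bowtie2, HTSeq and edgeR. No version, genome build, annotation or strand setting is given in the sources used here. The authors deposited whole-number counts per Ensembl gene and library. The authors also deposited tables of candidate genes with log2 fold changes, likelihood ratio scores, p-values and false discovery rates, used here only for the last comparison. Without a stated strand, overlapping and antisense genes cannot be told apart, and genes with near-identical copies (ribosomal proteins, Gapdh, tubulins, Eno1, Actb) are uncertain, since 14.4% to 24.1% of reads per library had no unique alignment.

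The 5 summary rows, which held 19.3% to 44.6% of each compared library, were dropped, leaving 29879 genes, of which 28843 were matched to a symbol. Library sizes and TMM factors were computed without 37 mitochondrially encoded rows. Counts were tested with edgeR 4.0.16 (R 4.3.3; filterByExpr, glmQLFit robust, glmQLFTest) with the replicate number as a block and Benjamini-Hochberg adjustment over all tested genes at 0.05. SE is the log2 fold change divided by the square root of F. The difference from TRAP against WCH was the interaction term of the same model over 12 libraries with 6 blocks. The replicate numbers were taken as pairs when the comparison was defined. Same-numbered SNF and SynapTRAP libraries deviated together from their group means (r = 0.241, 0.389 and 0.429 over 11236 genes, and -0.351 to 0.0334 for other combinations). Deviations from a group mean cancel out, so positive same-numbered values push the other combinations down, and this gap overstates the pairing. No library pair within a group agreed within sampling noise. The fit was tested on simulated counts. Coding sequences, lengths and GC content came from GENCODE M21 (GRCm38), and properties were computed in Python 3.11.15.

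The comparison and the gene lists were chosen with earlier results of these data known. Named genes included the 12 largest changes in each direction among genes called, with the same direction in all 3 pairs. These had at least 20 CPM in the higher group, a symbol that was not a predicted-gene name, and a protein-coding or long noncoding type. Up to 3 called members per list and direction with the smallest adjusted p were also named, as was a set of check genes. The last were the 5 smallest adjusted p of the difference in each direction, among genes also called in SynapTRAP against SNF. The other names, Begain, Dlg4, Lrrc7, Npy, Shank1 and Shank2, were chosen after their values were seen. A few named members and one sequence are not reported here. Alternatives were the fit without the block, other scaling factors and filters, DESeq2 1.42.0, each pair left out, and all 12 libraries fitted together.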

Additional observations from a re-analysis of the deposited data

Results flagged for a closer look

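For 17 named genes the pull-down effect in the synaptic band differed from that in whole homogenate by the edgeR interaction test at an adjusted p below 0.05. Some of them were named because of their small adjusted p in this same test, so their number is not a result. Over all 13137 genes the share called was 7.1%. Each value is the log2 fold change of SynapTRAP against SNF minus that of TRAP against WCH, and no explanation was tested. Genes lower in the band by this difference were Yipf3, a Golgi membrane protein (-2.08), and Nop10, a small protein of box H/ACA particles (-2.08). Small subunits of the respiratory chain and ATP synthase followed, with Cox7a2 (-1.73), Atp5mpl (-1.78), Cox8a (-1.74), Uqcrq (-1.72) and Ndufb9 (-1.45). The anchored growth factor Nrn1 (-1.07) and the adhesion molecule L1cam (-0.96) completed this side. Of these 9 genes, all had a negative log2 fold change in the band and a positive one in homogenate.

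On the other side Sept2, a septin, rose in the band (0.69) and fell in homogenate (-1.22), a difference of 1.90 (SE 0.30, edgeR adjusted p = 0.000301). Kank1, a regulator of cortical actin, had 1.38 and -0.82, a difference of 2.21, and was at 24.6, 19.5 and 18.5 CPM in SNF and at 57.7, 39.7 and 66.7 CPM in SynapTRAP. Iqgap1, an actin-binding scaffold, differed by 2.28, Erbin by 1.69 and a gene without a symbol, ENSMUSG00000078821, by 2.22. The glial genes Tspan2 (1.73) and P2ry12 (1.56) and the gene Trank1 (1.71) fell in both pull-downs and fell less in the band.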

How the results depend on the processing

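The replicate block had the largest effect on the calls: without this pairing 184 genes were higher and 112 lower, and for the difference of pull-downs 75 and 51. Leaving out one pair gave 417 to 1131 higher and 574 to 995 lower genes, and 67 to 247 and 126 to 343 for the difference. DESeq2 gave 660 higher, and the fit over all 12 libraries 644 higher and 638 lower. For the difference 671 genes were lower with median-ratio factors, 213 with total counts and 747 with DESeq2. No gene called here was called in the opposite direction under these alternatives. The share of higher genes with a hydrophobic segment was 24.7% without the block, 21.6% to 24.4% without a pair and 8.95% at the stricter threshold. That of lower genes was 93.8% without the block, 87.8% without a filter, 89.3% with DESeq2, 88.5% over 12 libraries, 82.0% to 90.6% without a pair and 78.0% at the stricter threshold. Mitochondrial ribosomal RNA alone made up on average 81.0% of gene counts over the 3 SNF libraries. With the median over transcripts, higher minus lower genes differed by 731 bases in coding length, -644 in 3′ untranslated length, 218 in transcript length and 8.09 points in GC content. Of genes that were not called, Gapdh ranged from -0.19 to 0.23, Meg3 from -0.85 to 0.22 and Nrgn from -0.0099 to 0.22 over the pairs left out. The cause was not tested. Counts of 1819853 to 7115176 per library limit what can be called for rare mRNAs.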

Other observations

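Zinc finger proteins, a family of nuclear factors, were higher in SynapTRAP in 19 of 245 genes and lower in 6 (median 0.03). These were 7.76% and 2.45% of the list, against 9.67% and 10% over all genes tested. Zfp523 had a log2 fold change of 1.49 and Zfp651 one of 1.07. Of 20 transcription factors of cortical layers 2 were higher and 1 lower (10% and 5%). Cux2, of the upper layers, rose by 0.98 and Pou3f3 by 0.66, while Rorb, of layer 4, fell by 0.49. Of 22 genes of cholesterol synthesis and uptake 2 were higher and 3 lower (9.09% and 13.6%). Hmgcs1 rose by 0.72 and Lss by 0.70, while Insig1, Sc5d and Ebp fell by 1.01, 0.67 and 0.77. Of 17 genes that mark excitatory or inhibitory neurons 4 were lower, among them the glutamate transporter Slc17a6 (-0.68) and the neuropeptides Vip (-0.61) and Npy (-0.50). Among 52 splicing factors tested 5 were higher and 4 lower (9.62% and 7.69%), with Prpf8 at 0.68 and Srsf11 at -0.71. The shares of splicing factors, layer factors and cholesterol genes were thus near those of all genes tested, and their members are given as single calls only. These calls were made with the pairs as a block. Without the first pair 6 zinc finger genes were higher and 3 lower, without the second 10 and 1, and without the third 12 and 6. No splicing factor was called without the first pair, when 1 identity gene was lower, 0 cholesterol genes were higher and 3 lower, and 1 layer factor was higher. Without the second pair 1 splicing factor was higher and 1 lower, 1 identity gene was lower, 1 cholesterol gene was higher and 1 lower, and 2 layer factors were higher. Without the third pair 2 identity genes were higher and 3 lower, 1 cholesterol gene was higher and 3 lower, and 3 layer factors were higher and 1 lower. Without the replicate block 2 zinc finger genes were higher and none of the genes of the other 4 lists was called.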
